A study of Mus musculus with 4 samples.

Results

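The 26S proteasome is the complex that degrades ubiquitin-tagged proteins, and its genes were chosen by symbol. All symbols of the series-wide FPKM sheet that begin with Psma, Psmb, Psmc, Psmd, Psme, Psmf or Psmg followed by a digit were taken, which gave 50 of 23444 distinct symbols. The sheet covers 4 heart libraries from mice aged 12 weeks. The 2 control hearts carried alphaMHCMerCreMer+/-, a tamoxifen-inducible Cre expressed from the cardiomyocyte promoter of alpha myosin heavy chain. The 2 Tbx20_OE hearts carried the same Cre together with CAGCATTbx20, a transgene for the T-box transcription factor Tbx20, and overexpression was induced at 8 weeks of age, 4 weeks before sampling. Both groups therefore carried the Cre, and whether the controls received the same inducing treatment is not given in the sources used here. RNA was extracted from heart tissue in bulk, so fewer cells of a type and less RNA per cell cannot be told apart. Values are FPKM, that is, fragment counts scaled by transcript length and by the mapped fragments of each library. Their sum ran from 453204 to 513342 per library, and the read depth behind them is unknown.

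The core particle, 20S, is a barrel of outer alpha rings, which gate entry, and inner beta rings, which hold the catalytic sites. The regulatory particle, 19S, caps the barrel: its ATPases unfold substrates, and its lid holds the deubiquitinase that removes the ubiquitin chain. In immune cells and under interferon, the catalytic subunits Psmb5, Psmb6 and Psmb7 are replaced by Psmb8, Psmb9 and Psmb10, which gives the immunoproteasome known for producing peptides for MHC class I. In the heart, where cardiomyocytes are not renewed quickly, the complex is known for the turnover of sarcomere and signalling proteins.

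The 50 symbols divide into 8 alpha subunits, 7 constitutive beta subunits, 4 immune or thymus-specific beta subunits, 6 19S ATPases, 3 further base or ubiquitin-binding subunits, 8 lid subunits, 6 activators and inhibitors, 4 assembly chaperones of 20S and 3 of 19S. The remaining 1, Psmc3ip, matches the pattern by name only. It encodes a meiotic recombination cofactor and is counted with the 50 but placed in no class. Of the 50, 48 had a mean FPKM of at least 1 and were tested. Psma8 and Psmb11 fell below that level.

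Tbx20 itself, on chromosome 9 from 24720812 to 24774303 of mm10, was at 6.99 and 4.58 FPKM in control versus 11.03 and 16.4 FPKM in Tbx20_OE, with no overlap between groups (log2 fold change 1.11, standard error 0.30, limma Benjamini-Hochberg adjusted p = 0.848). It did not pass the test. Heart muscle markers (Myh6, Myl2, Tnnt2, Tnni3, Actc1 and Ryr2) had the highest sum of the marker lists in all libraries. All 6 of 6 were found, and the sums lay between 31270 and 36950 FPKM. This sum was not used to tell ventricular from atrial muscle. Control replicate 2 stood apart. Atrial markers (6 of 6 highest there) summed to 3756 FPKM in it against 141.5 to 252.3 FPKM in the other 3 libraries, where Mybphl and Sln were listed at 0 in Tbx20_OE replicate 2. Myl7, an atrial myosin light chain, reached 958 FPKM there, against 0.0536 FPKM for control replicate 1 and 4.77 and 0.107 FPKM for the Tbx20_OE libraries. The label heart thus covers 3 libraries with almost no atrial muscle RNA and 1 with much of it. Mesothelial markers (4 of 4 highest there) summed to 24.4 FPKM against 0.512 to 0.655 FPKM, with Upk1b listed at 0 in control replicate 1. Results below are therefore given with and without this library.

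RNA of most core and regulatory subunits was abundant, and its level differed between classes. Among the 14 constitutive 20S subunits that were tested, the mean over the 4 libraries lay between 48.6 FPKM for Psma5 and 203 FPKM for Psmb4, with a median of 131 FPKM. Psma7, an alpha subunit, was at 147 and 161 FPKM in control versus 146 and 130 FPKM in Tbx20_OE. Psma2, another alpha subunit, was at 108 and 116 FPKM in control versus 131 and 108 FPKM in Tbx20_OE. The groups overlapped for Psma2, and for Psma7 both Tbx20_OE values lay just below both controls. The 17 subunits of 19S taken by symbol had a lower median than those of 20S, at 50.6 FPKM, and the ranges overlapped. Their means ran from 23.4 FPKM for the lid subunit Psmd11 to 115 FPKM for the ATPase Psmc3. Summed over subunits, constitutive 20S came to 1777, 1773, 1941 and 1712 FPKM in control replicates 1 and 2 and Tbx20_OE replicates 1 and 2, and 19S to 963, 709.6, 984 and 959.5 FPKM. The sum for these 17 genes of 19S was thus low in control replicate 2 alone. Partner subunits with other symbols are outside this sum. Of these, Shfm1 was at 375 and 559 FPKM in control versus 439 and 326 FPKM in Tbx20_OE, highest in control replicate 2. Of the 10 tested genes in the list of partner subunits and assembly factors, 9 were lowest in control replicate 2. Within 20S the alpha subunits were low there too, with sums of 722, 586, 740.1 and 698 FPKM in the same order, while the constitutive beta subunits, at 1056, 1187, 1201 and 1014 FPKM, were not.

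**Figure D1:**
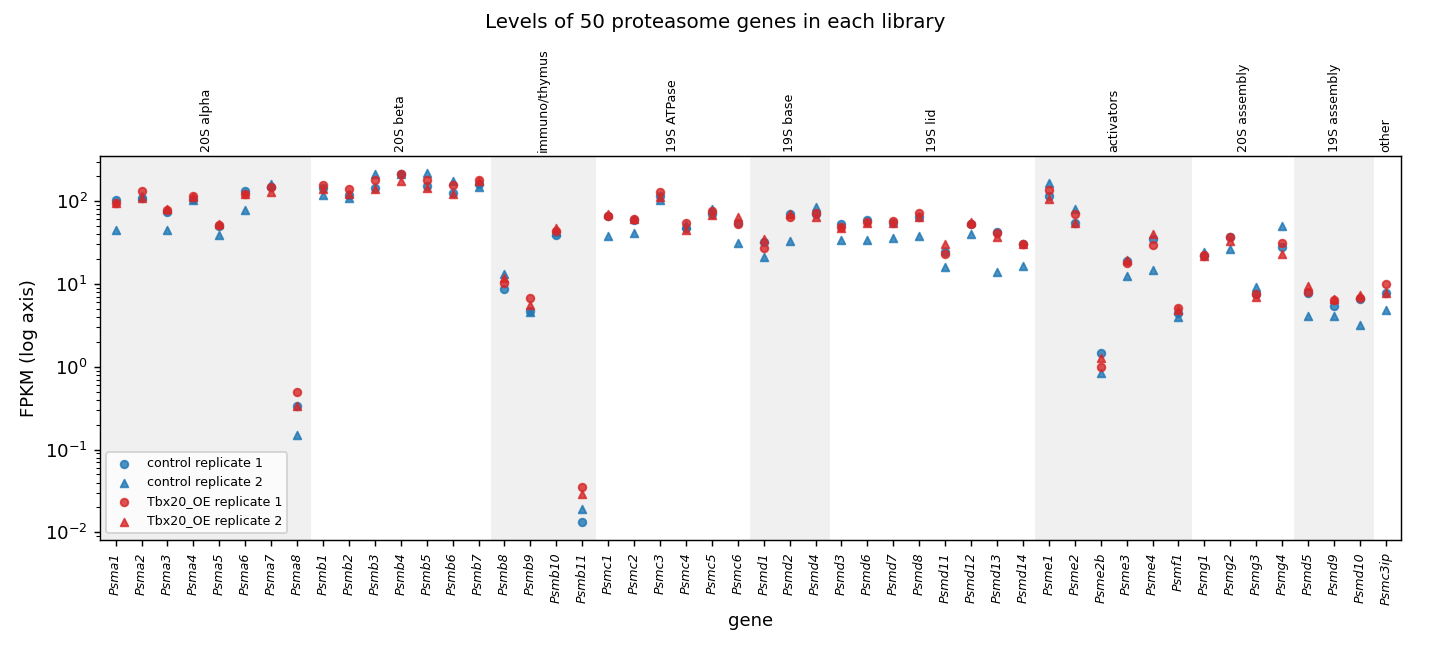
FPKM of the 50 proteasome genes on a log axis, by class, with 1 point for each of the 4 libraries (blue, control; red, Tbx20_OE; circle, replicate 1; triangle, replicate 2). Constitutive 20S subunits other than Psma8 have means between 48.6 and 203 FPKM, Psma8 and Psmb11 lie far below, and control replicate 2 is the lowest point for 32 of the 48 tested genes.

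Tissue-restricted subunits were near the floor. Psmb11, the catalytic subunit of the thymus proteasome, was at 0.0133 and 0.0192 FPKM in control versus 0.0355 and 0.0290 FPKM in Tbx20_OE. Its neighbour on chromosome 14, Psmb5, lies 7314 bases away and was among the most abundant members in all 4 libraries. Psma8, the alpha subunit of the testis proteasome, was at 0.338 and 0.151 FPKM in control versus 0.501 and 0.339 FPKM in Tbx20_OE. No fold change is given for either gene at these levels.

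The comparison of groups asks whether proteasome RNA in the adult heart differs 4 weeks after Tbx20 overexpression was induced. No member passed the test in either direction (limma on log2(FPKM + 1), adjusted over 10513 genes; adjusted p from 0.848 to 0.995), and 0 had an unadjusted p under 0.05, beside 111 higher and 49 lower genes in all. Over all genes 0.019% were called. The median log2 fold change of the 48 was 0.20, with 34 positive and 14 negative, beside a median of 0.149 over all tested genes. Of the 48, 15 had both Tbx20_OE libraries above both controls, where the background over all tested genes was 28.1%, and 2 had both below, where it was 4.77%. With 2 libraries in each group, the smallest p of an exact two-sided permutation test is 0.333. Both shares lay near their background. With the libraries centred on their medians, which moves fold changes by 0.161, the counts were 3 above (background 10.3%) and 5 below (background 14.1%). The 3 that stayed above were Psma3, Psmb7 and Psmd9, and the other 12 of the 15, Psmb9 and Psmb10 among them, overlapped after centring. With quantile normalization they were 5 (background 11.8%) and 4 (background 13.0%), and with GC correction 5 (background 12.2%) and 5 (background 12.5%). Without control replicate 2 they were 18 (background 45.2%) and 9 (background 16.8%), and the median log2 fold change was 0.05.

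The constitutive catalytic subunits had overlapping groups or small differences. Psmb5, on chromosome 14 from 54614120 to 54617995 of mm10, cuts after hydrophobic residues and was at 154 and 215 FPKM in control versus 179 and 144 FPKM in Tbx20_OE. Psmb6, which cuts after acidic residues, was at 125 and 174 FPKM in control versus 157 and 122 FPKM in Tbx20_OE. Both were highest in control replicate 2, and the groups overlapped. Psmb7, which cuts after basic residues, was at 161 and 147 FPKM in control versus 177 and 174 FPKM in Tbx20_OE, without overlap (log2 0.19, standard error 0.24). The noncatalytic subunit Psmb2 likewise lay apart, at 120 and 108 FPKM against 141 and 121 FPKM (log2 0.20, standard error 0.25), while Psmb4, at 212 and 212 FPKM against 215 and 174 FPKM, overlapped. In each of these genes the fold change was smaller than its standard error. The remaining noncatalytic subunits, outside the naming rule, overlapped too: Psmb1 was at 144 and 120 FPKM against 154 and 138 FPKM, and Psmb3 at 142 and 209.9 FPKM against 177 and 141 FPKM. The log2 fold changes of the 7 constitutive beta subunits ran from -0.18 to 0.20.

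Of the immunoproteasome subunits Psmb8 and Psmb9 were at low level, while Psmb10 was near the median of 19S subunits. Psmb8 lies on chromosome 17 from 34198195 to 34201454 of mm10 and Psmb9 from 34182099 to 34187330. Psmb8 was at 8.76 and 13.3 FPKM in control versus 10.4 and 11.8 FPKM in Tbx20_OE, with the Tbx20_OE values inside the control range (log2 0.03, standard error 0.27). Psmb9 was at 4.74 and 4.58 FPKM in control versus 6.73 and 5.54 FPKM in Tbx20_OE. Both Tbx20_OE values of Psmb9 lay above both controls, which differed little (4.66 ± 0.115 against 6.14 ± 0.837 FPKM, SD, n = 2; log2 0.33, standard error 0.20, limma adjusted p = 0.848). Psmb10 was the most abundant of the immune subunits, at 39.2 and 42.8 FPKM in control versus 43.6 and 47.1 FPKM in Tbx20_OE, again without overlap (log2 0.14, standard error 0.23). Without control replicate 2 the log2 fold changes of Psmb8, Psmb9 and Psmb10 were 0.30, 0.31 and 0.20, and none passed the test. Leukocytes are known to carry the immunoproteasome. All 8 leukocyte markers were found and 3 were tested, and none was highest in control replicate 2. Their summed level was 118 and 87.8 FPKM in control and 141 and 86.7 FPKM in Tbx20_OE. Their part in the levels of Psmb8 to Psmb10 was not tested.

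A ratio of 2 genes within a library does not depend on how that library was scaled. Psmb8 stood at 5.70% and 6.19% of Psmb5 in control and at 5.78% and 8.18% in Tbx20_OE, with overlap between the groups. Psmb9 stood at 3.80% and 2.63% of Psmb6 in control and at 4.30% and 4.53% in Tbx20_OE, where both values lay above both controls. The difference for Psmb9 over Psmb6 was 0.48 on the log2 scale (control mean -4.98 ± 0.375, Tbx20_OE mean -4.50 ± 0.054, SD, n = 2; exact permutation p = 0.333, the smallest possible). It was 0.21 without control replicate 2. Psmb10 stood at 24.4% and 29.2% of Psmb7 in control and at 24.6% and 27.1% in Tbx20_OE, with overlap. In all 4 libraries Psmb10 was thus much nearer to its constitutive counterpart than Psmb8 and Psmb9 were to theirs.

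**Figure D2:**
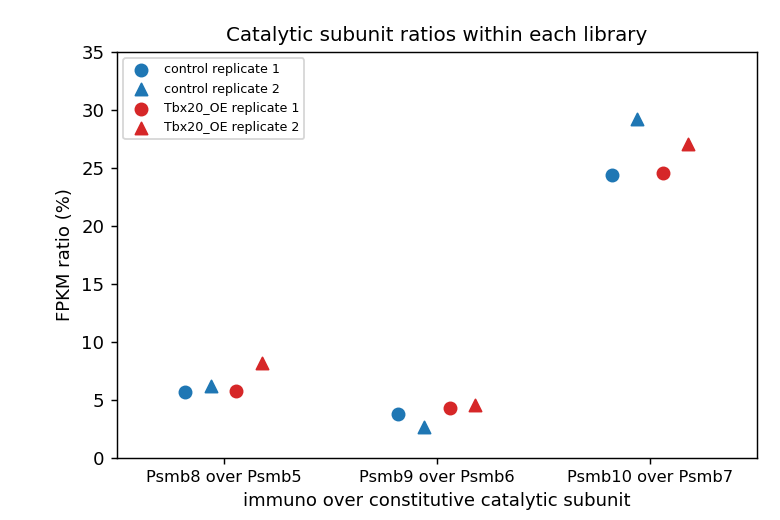
FPKM of each immunoproteasome catalytic subunit as a percentage of its constitutive counterpart, 1 point for each of the 4 libraries (blue, control; red, Tbx20_OE; circle, replicate 1; triangle, replicate 2). Psmb10 over Psmb7 lies between 24.4% and 29.2%, the other pairs between 2.63% and 8.18%, and the groups do not overlap for Psmb9 over Psmb6.

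The promoters of these paired subunits are shown because the constitutive and immune copies of a site differ in level within the same hearts. The windows run from 250 bases before to 50 bases after the start, are given 5′ to 3′ on the strand of the gene, and come from RefSeq on GRCm38.p6, the assembly that mm10 corresponds to. Windows were found for 42 of the 50 genes, and not for Psmb7. Capitals mark matches, on either strand, to TGACNNNGC, the core of the antioxidant response element bound by Nfe2l1 and Nfe2l2, to the core of the interferon-stimulated response element (GAAA, any 2 bases, GAAA) and to CCAAT, the NF-Y box.
Psmb5 (chr14:54617946-54618245, minus strand): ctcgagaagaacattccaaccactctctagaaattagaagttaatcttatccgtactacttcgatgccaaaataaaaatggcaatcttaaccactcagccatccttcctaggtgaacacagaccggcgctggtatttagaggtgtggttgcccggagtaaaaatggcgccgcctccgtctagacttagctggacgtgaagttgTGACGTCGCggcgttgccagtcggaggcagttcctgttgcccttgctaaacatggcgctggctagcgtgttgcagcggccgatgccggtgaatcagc
Psmb8 (chr17:34197945-34198244, plus strand): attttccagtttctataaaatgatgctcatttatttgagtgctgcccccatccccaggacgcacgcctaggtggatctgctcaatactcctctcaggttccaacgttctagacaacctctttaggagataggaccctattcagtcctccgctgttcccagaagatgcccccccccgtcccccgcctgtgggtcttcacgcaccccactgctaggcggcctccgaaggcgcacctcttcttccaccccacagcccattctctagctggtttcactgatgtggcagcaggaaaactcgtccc
Psmb6 (chr11:70525107-70525406, plus strand): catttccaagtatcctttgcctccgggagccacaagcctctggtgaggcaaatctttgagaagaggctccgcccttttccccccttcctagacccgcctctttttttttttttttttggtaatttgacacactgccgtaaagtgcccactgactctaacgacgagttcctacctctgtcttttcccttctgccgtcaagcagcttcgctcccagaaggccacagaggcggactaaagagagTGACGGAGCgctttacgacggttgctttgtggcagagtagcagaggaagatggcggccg
Psmb9 (chr17:34187281-34187580, minus strand): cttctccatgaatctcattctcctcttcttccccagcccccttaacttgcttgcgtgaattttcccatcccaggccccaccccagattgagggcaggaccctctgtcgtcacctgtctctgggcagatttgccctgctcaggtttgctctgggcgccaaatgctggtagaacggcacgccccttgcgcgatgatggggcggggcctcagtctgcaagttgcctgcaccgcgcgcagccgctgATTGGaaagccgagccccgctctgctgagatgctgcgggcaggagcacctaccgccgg
The constitutive genes Psmb5 and Psmb6 each held 1 antioxidant response core shortly before the start, and none of the other motifs. In Psmb8 no match was found, and Psmb9 had 1 NF-Y box on the reverse strand. Among all members the antioxidant response core was found for 6 of 42 members (14.3%) beside 3781 of 27025 genes with a window and 17.6% of the tested genes with one. For the interferon-stimulated core the shares were 5 of 42 (11.9%) and 4.0%, and for CCAAT 15 of 42 (35.7%) and 41.1%. A match of letters is a description and does not show binding. Psmb8 and Psmb9 flank Tap1, a peptide transporter gene, on chromosome 17: Tap1 starts 225 bases from Psmb9, inside the window printed for it, and ends 969 bases from Psmb8. Tap1 was at 2.02 and 2.32 FPKM in control versus 2.05 and 2.78 FPKM in Tbx20_OE, with overlap.

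Of the 7 tested alpha subunits 6 had positive fold changes, and 5 were lowest in control replicate 2. Psma3, on chromosome 12 from 70974623 to 70994923 of mm10, was at 73.3 and 44.2 FPKM in control versus 79.0 and 79.1 FPKM in Tbx20_OE. The Tbx20_OE libraries were nearly equal and control replicate 1 lay close below them, and the log2 fold change of 0.47 (standard error 0.31) was 0.11 without control replicate 2. Psma5 was at 50.6 and 39.2 FPKM in control versus 51.9 and 52.9 FPKM in Tbx20_OE (log2 0.23, and 0.05 without that library). Psma1, named after its values were seen, was at 103 and 44.2 FPKM in control versus 95.8 and 95.6 FPKM in Tbx20_OE. Its log2 fold change of 0.50 was -0.10 without that library. The remaining alpha subunits, Psma4 and Psma6, lie outside the naming rule. Psma4 was at 106 and 104 FPKM in control versus 116 and 111 FPKM in Tbx20_OE, without overlap, and Psma6 at 134 and 77.7 FPKM against 121 and 121 FPKM, with overlap. Psma7 was the only alpha subunit with both Tbx20_OE values below both controls (log2 -0.16, standard error 0.25).

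Of the 6 ATPases of 19S, which form the ring that unfolds substrates, 4 had positive and 2 negative fold changes. Psmc1 was at 65.8 and 37.4 FPKM in control versus 66.3 and 69.8 FPKM in Tbx20_OE (log2 0.45, standard error 0.33), and Psmc2 at 59.2 and 40.9 FPKM in control versus 60.4 and 60.1 FPKM in Tbx20_OE (log2 0.29, standard error 0.28). Both lay apart by group, and without control replicate 2 the log2 fold changes were 0.05 and 0.03. Psmc3 overlapped, at 117 and 103 FPKM against 129 and 113 FPKM, and so did Psmc5, at 69.9 and 79.5 FPKM against 76.6 and 68.3 FPKM. Psmc6, named after its values were seen, was at 54.6 and 31.4 FPKM against 52.5 and 63.8 FPKM, with overlap. Psmc4 had the lowest mean of the ATPases, with 47.4 and 51.9 FPKM in control and 53.9 and 45.02 FPKM in Tbx20_OE. Of the 6 ATPases 4 were lowest in control replicate 2.

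The lid holds Psmd14, the metalloprotease that clips off ubiquitin chains. Fold changes were positive for 8 of 8 lid genes that match the symbol rule. Their median log2 fold change was 0.37 beside 0.149 over all tested genes. All 8 were lowest in control replicate 2. The partner subunit Shfm1, outside the symbol rule, ran the other way and was highest there. Its log2 fold change was -0.27 (standard error 0.33), and 0.01 without control replicate 2. Psmd14 was at 29.9 and 16.4 FPKM in control versus 30.5 and 30.6 FPKM in Tbx20_OE (log2 0.44, standard error 0.33), and Psmd12 at 53.2 and 40.4 FPKM against 53.5 and 55.2 FPKM (log2 0.22, standard error 0.25). The groups lay apart for these 2 lid genes and overlapped for the other 6. Psmd13, on chromosome 7 from 140882394 to 140898642 and named after its values were seen, was at 42.1 and 14.04 FPKM in control versus 40.7 and 36.8 FPKM in Tbx20_OE. Psmd8 was at 65.0 and 37.5 FPKM against 72.0 and 63.7 FPKM, and Psmd11 at 24.1 and 15.9 FPKM against 23.1 and 30.3 FPKM. The remaining lid genes Psmd3, Psmd6 and Psmd7, also outside the rule, had log2 fold changes of 0.18, 0.30 and 0.32. Without control replicate 2 the median of the lid was 0.03, with 5 positive and 3 negative. In the base, the scaffold subunit Psmd2 was at 69.4 and 32.6 FPKM in control versus 64.0 and 69.4 FPKM in Tbx20_OE, and the other scaffold, Psmd1, at 31.8 and 20.9 FPKM against 26.9 and 35.2 FPKM. The ubiquitin receptor Psmd4 ran the other way, at 69.3 and 84.5 FPKM against 72.7 and 63.5 FPKM. All 3 overlapped between groups, and their fold changes without control replicate 2 lay between -0.06 and -0.03.

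**Figure D3:**
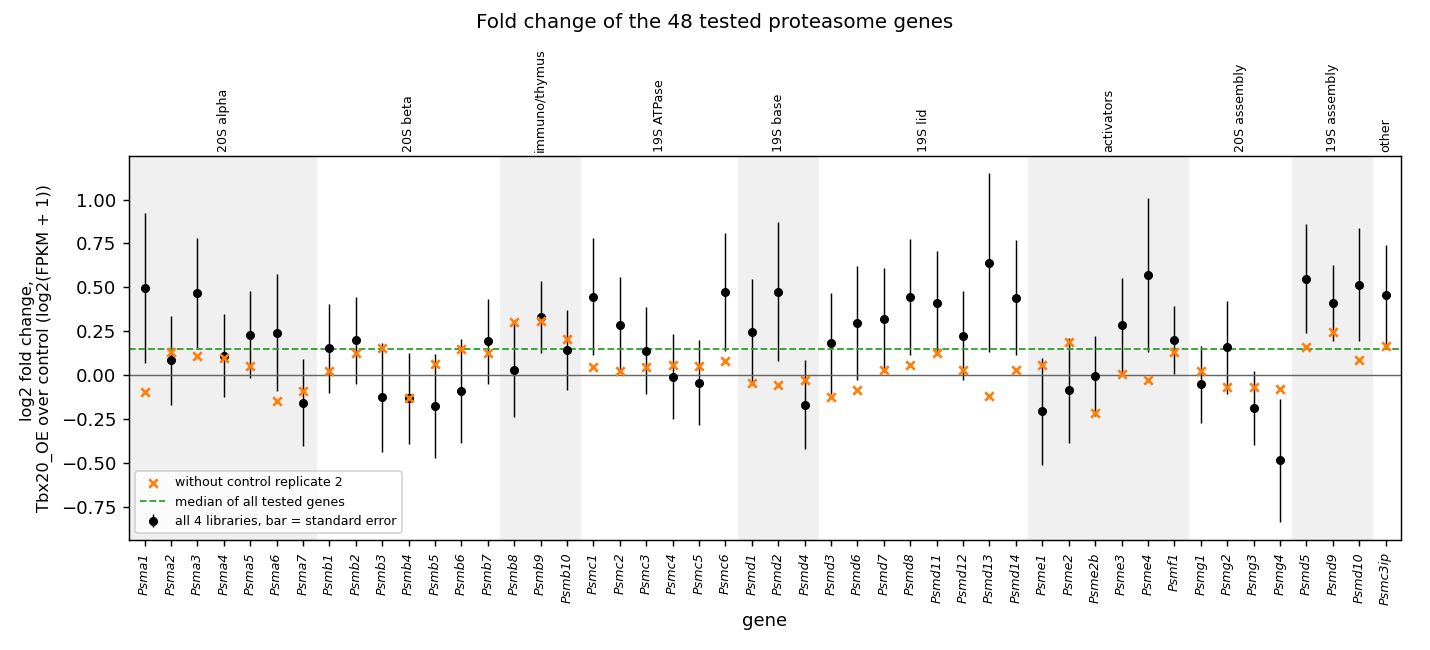
Log2 fold change of Tbx20_OE over control on the log2(FPKM + 1) scale for the 48 tested proteasome genes, by class. Black points with standard error bars use all 4 libraries, orange crosses leave out control replicate 2, and the dashed line is the median of all tested genes, 0.149; the 8 lid genes lie above 0 with all libraries and on both sides of it without that library.

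Among activators, which open the barrel in place of 19S, the interferon-inducible pair Psme1 and Psme2 were abundant. Psme1 was at 114 and 165 FPKM in control versus 135 and 105 FPKM in Tbx20_OE (log2 -0.21, standard error 0.30), and Psme2 at 54.4 and 79.7 FPKM against 70.0 and 55.0 FPKM (log2 -0.08, standard error 0.30). Both followed the same order of libraries except at the low end, and their groups overlapped. The ratio of Psme1 to Psme2, whose products share a ring and whose genes lie 5912 bases apart on chromosome 14, was 2.09 and 2.07 in control and 1.92 and 1.90 in Tbx20_OE. Psme4, the nuclear activator named after its values were seen, was at 35.1 and 14.8 FPKM in control versus 29.8 and 39.8 FPKM in Tbx20_OE. The inhibitor gene Psmf1 was at 4.42 and 3.97 FPKM in control versus 5.07 and 4.84 FPKM in Tbx20_OE, without overlap (log2 0.20, standard error 0.19). Psme3, the other nuclear activator and outside the rule, was at 18.7 and 12.4 FPKM against 18.1 and 19.5 FPKM, with overlap. Psme2b was at 1.48 and 0.850 FPKM against 0.989 and 1.29 FPKM. Its transcript matched that of Psme2 at 789 of 794 aligned bases (99.4%), so the division of reads between them is uncertain.

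Assembly chaperones help to build the complex and are not part of the mature particle. The 3 chaperones of 19S had both Tbx20_OE values above both controls (background 28.1%), and after median centring Psmd5 and Psmd10 overlapped and Psmd9 did not. Psmd5 was at 7.66 and 4.05 FPKM in control versus 8.08 and 9.32 FPKM in Tbx20_OE (log2 0.55, standard error 0.31). Psmd10, also known as gankyrin, was at 6.52 and 3.16 FPKM against 6.70 and 7.31 FPKM (log2 0.52, standard error 0.32), and Psmd9 at 5.36 and 4.05 FPKM against 6.43 and 6.66 FPKM (log2 0.41, standard error 0.22). All 3 were lowest in control replicate 2, and without it their log2 fold changes were 0.16, 0.09 and 0.25. The chaperones of 20S had negative fold changes for 3 of 4. Psmg3 was at 7.63 and 9.18 FPKM in control versus 7.46 and 6.99 FPKM in Tbx20_OE, without overlap (log2 -0.19, standard error 0.21). Psmg4, on chromosome 13 from 34162964 to 34178172, was at 28.1 and 50.3 FPKM against 30.8 and 23.0 FPKM (log2 -0.49, standard error 0.35), and Psmg2 at 36.5 and 26.4 FPKM against 37.2 and 32.6 FPKM. Psmg4 was the member highest in control replicate 2 relative to the rest, and without that library its log2 fold change was -0.08. Psmg1, outside the rule, was at 21.9 and 24.4 FPKM against 22.5 and 22.01 FPKM, with overlap. No difference between the 2 kinds of chaperone was tested. Psmc3ip, outside the complex, was at 7.73 and 4.80 FPKM against 10.05 and 7.66 FPKM.

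Much of the spread among proteasome genes lay between control replicate 2 and the other libraries. Of the 48 tested members 32 were lowest there (66.7%, background 54.3%) and 12 highest, where the background was 25.5%. The median absolute log2 difference over the 48 was 0.12 between control replicate 1 and Tbx20_OE replicate 1, 0.11 between control replicate 1 and Tbx20_OE replicate 2, and 0.17 between the Tbx20_OE libraries, where all tested genes gave 0.15, 0.16 and 0.18. It was 0.52 between the control libraries, where all tested genes gave 0.38. Between control replicate 2 and Tbx20_OE replicates 1 and 2 it was 0.40 and 0.54, where all tested genes gave 0.335 and 0.432. Control replicate 1 and Tbx20_OE replicate 2 were within 1.2-fold of each other for 43 of 48 members (71.7% of all tested genes), against 15 of 48 for the control libraries (36.1% of all tested genes). The distance of control replicate 2 from the rest was therefore found across the series and not in proteasome genes alone. Psmd13 in control replicate 2 was 0.352 times the mean of the other 3, Psme4 0.424 times, Psma1 0.452 times and Psmd2 0.482 times. Psmg4 there was 1.84 times that mean. On the log2(FPKM + 1) scale, Psmg4 was the 1 member at least 1.5-fold above the mean of the other 3, and 16 were at least 1.5-fold below it. The same counts over all tested genes were not taken.

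The deviation of control replicate 2 varied with the composition of the transcripts. Over the 48 members, Spearman's rho between the deviation and the GC content of the longest protein-coding transcript was 0.61, and that with its length was -0.59. Over 10456 tested genes these were 0.46 and -0.22. The other libraries had such trends too, measured as deviations from the mean over all libraries. For control replicate 1 and Tbx20_OE replicates 1 and 2, rho was -0.30, -0.15 and -0.40 with GC content. With length it was 0.14, -0.20 and 0.34. Deviations from a shared mean depend on each other. These correlations are descriptions across genes of the same libraries, and GC content and length were themselves related among members (rho -0.37). Psmg4, with a transcript of 555 bases and 55.1% GC, lay at the upper end, and Psme4, with 6491 bases and 43.9% GC, near the lower. Psmd13, at 53.4% GC and 1989 bases, lay lowest of all. With values corrected for GC content in each library, the median log2 fold change of 19S members was 0.13 and that of constitutive 20S members -0.07. The part of GC content, length and atrial tissue in the low values of control replicate 2 was not tested further.

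**Figure D4:**
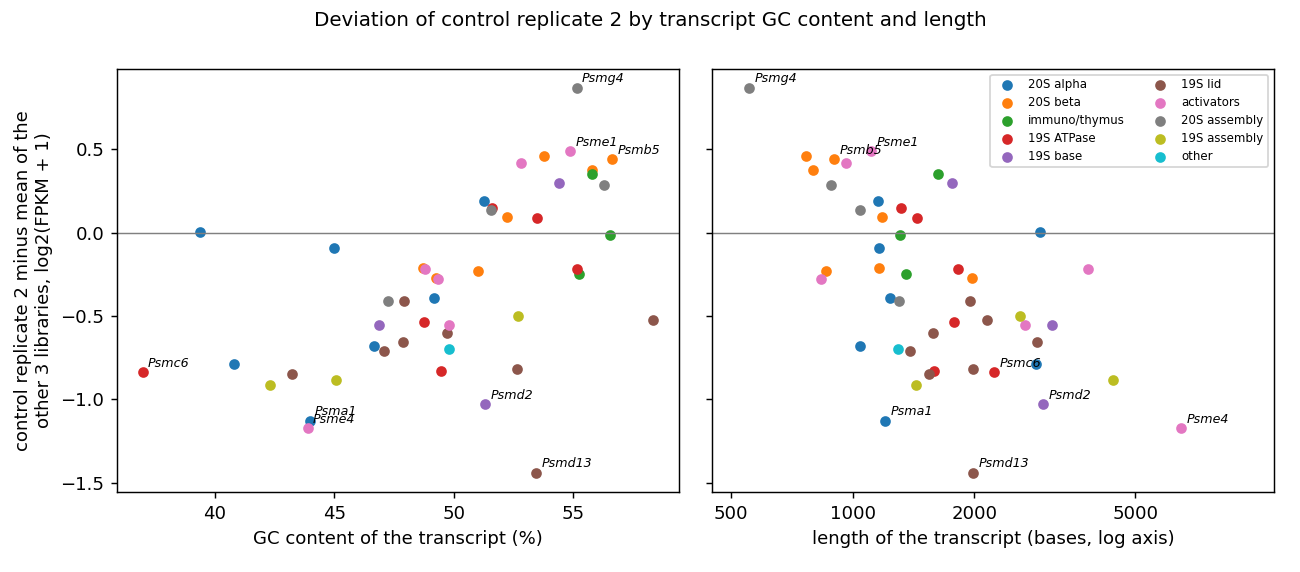
Value of control replicate 2 minus the mean of the other 3 libraries on the log2(FPKM + 1) scale for the 48 tested proteasome genes, against transcript GC content in percent (left) and transcript length in bases on a log axis (right), coloured by class. Spearman's rho is 0.61 with GC content and -0.59 with length; Psmg4 lies highest and Psmd13 lowest.

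Leaving out libraries changed the calls in 1 case. Without control replicate 1, where control replicate 2 is the lone control, assumed to have the spread of the Tbx20_OE pair, 11 of 48 members were called higher and 0 lower, beside backgrounds of 11.4% and 2.26% over all genes. They were Psmd13, Psma1, Psme4, Psmd10, Psmd2, Psmd5, Psmd14, Psmc1, Psma3, Psmc6 and Psmd8, with limma adjusted p from 0.0184 for Psmd13 (log2 1.40) to 0.0489 for Psmd8 (log2 0.84). Without control replicate 2, no member was called and the same 11 genes had log2 fold changes between -0.12 for Psmd13 and 0.16 for Psmd5. Leaving out either Tbx20_OE library gave 0 calls.

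The authors' deposited table listed all 50 members, tested 49 of them and called none (cuffdiff q = 0.999 for each, lowest p = 0.186), with 31 of 12850 tested genes called significant. In the authors' deposited table the median log2 ratio of the 49 was 0.02, beside -0.009 over all genes tested there, and 28 were positive. Psmd13 was at 47.5 FPKM for control and 60.5 FPKM for Tbx20_OE there, and Psmb9 at 6.88 and 9.09 FPKM, both from the authors' deposited table. These group values are on another scale than the FPKM per library, where the Psmd13 controls were at 42.1 and 14.04 FPKM. None of the 50 was among the 215 genes of the authors' selection.

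Genes that work with the proteasome were examined through 5 lists of 43 genes, of which 38 were tested and 0 passed (limma adjusted p from 0.848 to 0.990). Their median log2 fold change was 0.20, 5 had both Tbx20_OE values above both controls (background 28.1%) and 1 had both below (background 4.77%). Ubb, a gene for polyubiquitin, overlapped, at 191 and 155 FPKM in control versus 184 and 165 FPKM in Tbx20_OE. Without control replicate 1, where control replicate 2 is the lone control, some list genes had large positive log2 fold changes. For Erap1, Ngly1, Nploc4, Usp14, Vcp and Zfand5 they ran from 1.00 to 1.31, beside a median of 0.21 over all tested genes. Others were negative there, such as Shfm1 at -0.56. Without control replicate 2, the values for Erap1 to Zfand5 ran from -0.14 for Ngly1 to 0.02 for Nploc4.

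Transcriptional control of proteasome genes is known to run through Nfe2l1, which raises subunit genes when the proteasome is impaired. Nfe2l1 was at 83.1 FPKM in control replicate 1 and at 72.9 and 93.7 FPKM in Tbx20_OE. In control replicate 2 its estimate failed and it is listed at 0, so it was not tested. Nfe2l2, its relative in the oxidative stress response, was at 21.9 and 16.8 FPKM in control versus 26.6 and 24.8 FPKM in Tbx20_OE, without overlap (log2 0.40, standard error 0.24). Of the partners with other symbols, the ubiquitin receptor Adrm1 was at 44.3 and 36.5 FPKM in control versus 44.3 and 43.1 FPKM in Tbx20_OE. The 20S maturation factor Pomp was at 139 and 121 FPKM against 163 and 136 FPKM. The deubiquitinase Usp14 was at 12.6 and 4.50 FPKM against 9.93 and 16.1 FPKM, and the unfoldase Vcp at 144 and 66.7 FPKM against 137 and 153 FPKM. All 4 overlapped and were lowest in control replicate 2.

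Of the interferon and peptide loading list, 8 of 10 genes were tested and 1, B2m, had groups that did not overlap. Over all tested genes the background was 28.1% above and 4.77% below, so 1 of 8 is no excess. B2m, the light chain of MHC class I, was at 161 and 125 FPKM in control versus 232 and 330 FPKM in Tbx20_OE (log2 0.96, standard error 0.31, and 0.77 without control replicate 2). Irf1, which drives immunoproteasome genes under interferon, was at 6.70 and 9.52 FPKM in control versus 10.2 and 8.31 FPKM in Tbx20_OE, with overlap between groups.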

How the data were processed

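RNA was sequenced from 4 mouse hearts, 2 control and 2 Tbx20_OE, grouped by the genotype in the labels. The submitters' processing notes list TopHat2 2.0.13, Cufflinks 2.1.1 and mm10; annotation release and strand setting were not given in the sources used here. FPKM was deposited by the authors for each gene in a series-wide sheet and in a file per library, and both held the same values for all 93772 gene and library pairs compared (relative tolerance 1e-05). Their comparison table comes from cuffdiff 2.1.1, per the file headers, and the authors deposited FPKM, a p-value and a q-value for each gene in it. Selection flags, scores of 0 or 1 deposited by the authors, were used only to look up members. Their quantile-normalized FPKM table was not used in any fit. Quantile normalization here was done with limma on the log2(FPKM + 1) values of the tested genes.

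The 4 genes with a failed estimate and 1 symbol found only in the sheet were left out. Where a symbol had several loci, that of greatest mean was kept; no member had more than 1. Values were analysed as log2(FPKM + 1), which understates changes of low genes, for 10513 genes with mean FPKM of at least 1. Groups were compared in R 4.3.3 with limma 3.58.1 (trended prior variance, group as the only term, two-sided), with Benjamini-Hochberg adjustment at 0.05, after a test on simulated data. GC content and length came from the longest protein-coding transcript in GENCODE M21 (99.5% of tested genes), and file starts have 1 added. Python 3.11.15, pandas 2.3.3, numpy 2.4.6 and matplotlib 3.10.9 did the rest.

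Members, classes, lists and motifs were chosen with earlier results of these data known. Named members were Psmb5 to Psmb10, Psme1 and Psme2, and in each class the 2 highest and the lowest by mean FPKM and up to 2 each way by fold change among those with groups apart; exceptions are marked in the text. Some genes of the associated and marker lists are not reported here. Alternatives were median centring, quantile normalization, GC correction, a pseudocount of 0.1, mean FPKM filters of 5 or none, a replicate block, no trend, each library left out, and values joined by locus. The labels describe RNA from each heart and do not say whether libraries of a group came from separate litters; p-values measure only the spread between these libraries.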

Additional observations from a re-analysis of the deposited data

How the results depend on the processing

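Calls of members were 0 in either direction under every alternative tried except without control replicate 1, where 11 were called higher; over the libraries left out in turn the count ran from 0 to 11. Members with groups apart numbered 15 above and 2 below. With median centring the counts were 3 and 5, with quantile normalization 5 and 4, and with GC correction 5 and 5. With a library left out they ran from 18 to 33 and from 2 to 12. The counts over all 10513 tested genes rose too. They were 2950 above and 501 below with all libraries, and ran from 4303 to 6291 and from 874 to 2840 with a library left out. For the associated lists, with 38 tested genes, the count of 6 ran from 10 to 34 with a library left out. The 34 arose without control replicate 1, where 6291 of all 10513 tested genes lay above and 2840 below. The constitutive 20S median of 0.13 was -0.029 with median centring and -0.071 with GC correction, and ran from 0.08 to 0.21 with a library left out. The 19S median of 0.30 ran from 0.029 to 0.61, and the difference for Psmb10 over Psmb7, -0.05, was 0.12 with GC correction. The causes were not tested.

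Of 35 tested named members, some fold changes changed sign, most of them small, but among them Psmd2 (0.48 with all libraries) and Psmd1 (0.25). With median centring they were -0.077 for Psma2, -0.019 for Psmb10, -0.13 for Psmb8, -0.022 for Psmc3 and -0.001 for Psmg2, and with quantile normalization -0.022, -0.13 and -0.006 for Psma2, Psmb8 and Psmg2. With GC correction they were -0.24, -0.002 and -0.061 for Psma2, Psmb8 and Psmg2, and with a pseudocount of 0.1 it was 0.005 for Psme2b. With a library left out, the range was -0.054 to 0.22 for Psma2, -0.29 to 0.02 for Psmb4, -0.42 to 0.065 for Psmb5, -0.33 to 0.15 for Psmb6 and -0.25 to 0.30 for Psmb8. It was -0.14 to 0.12 for Psmc4, -0.13 to 0.049 for Psmc5, -0.046 to 0.54 for Psmd1 and -0.058 to 1.009 for Psmd2. It was -0.47 to 0.058 for Psme1, -0.36 to 0.19 for Psme2, -0.22 to 0.21 for Psme2b and -0.068 to 0.39 for Psmg2.

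No other call changed with a replicate block (0 members called, with 3 genes higher and 3 lower over all genes against 2 higher), and same-numbered libraries are not pairs by any label. Deviations of same-numbered libraries correlated at -0.45, and with the crossed pairing, chosen after seeing the data, 12 genes were called higher, 18 lower and 0 of them members. The depth is unknown, and 2 libraries per group limit the precision.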
